A study of Mus musculus with 4 samples.

Results

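Melanocytes make melanin in melanosomes and hand it to the surrounding keratinocytes of the skin. The 10 genes described here serve that pathway: the enzymes Tyr, Tyrp1 and Dct, the melanosome genes Pmel, Mlana and Slc45a2, the transcription factors Mitf and Sox10, and the receptors Kit and Ednrb. They were chosen by name, with earlier results of these data known. Every probe set that the platform annotation gives to 1 of these symbols was taken. This made 21 of the 45101 probe sets on the array. The 10 genes are part of 18193 named genes.

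RNA came from primary keratinocyte cultures of newborn C57BL/6 mice that were labelled WT or p38a-KO. p38a is the stress-activated MAP kinase encoded by Mapk14. Each genotype was measured without irradiation and 4 h after ultraviolet B (UVB) at 75 mJ/cm2, with 1 Affymetrix array in each of the 4 groups. The descriptions of the KO arrays carry the code K14C, which the labels do not expand, so what drives the deletion, and in which cells, is unknown here. How many animals gave each culture is not given, and no sample used here is labelled as mock-irradiated at 4 h, so irradiation and time in culture cannot be told apart.

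As general background, MITF is the central transcription factor of the melanocyte lineage, and SOX10 activates its gene. MITF in turn activates the genes of pigment enzymes through short E-box motifs in their promoters. KIT, the receptor for the ligand encoded by Kitl, and EDNRB, an endothelin receptor, carry survival and migration signals into melanocytes. In irradiated skin, keratinocytes are known to release ligands for such receptors, melanocortin from the Pomc product among them.

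Before the values, 4 windows before a transcription start are shown, because MITF is known to act on the enzyme genes Tyr, Tyrp1 and Dct, and Mitf itself had the largest UVB difference among the 10. Each is the run of 250 bases just upstream of an annotated start, from RefSeq on GRCm38.p6, written in the direction of transcription. Capitals mark matches on either strand to the E-box variant CATGTG, to the cyclic AMP response element TGACGTCA, or to AGTCATGTGCT, the longest run around a CATGTG that the Tyr and Tyrp1 windows share, which is known as the M-box. Of the 10 genes, 6 were matched in the RefSeq promoter table (Tyr, Tyrp1, Dct, Kit, Mitf and Ednrb), with 9 starts in all. The Tyr window lies at chr7:87493513-87493762 on the minus strand, the Tyrp1 window at chr4:80833963-80834212 on the plus strand, the Dct window at chr14:118052247-118052496 on the minus strand, and the Mitf window, before the most downstream of its 3 starts, at chr6:97991533-97991782 on the plus strand.
Tyr: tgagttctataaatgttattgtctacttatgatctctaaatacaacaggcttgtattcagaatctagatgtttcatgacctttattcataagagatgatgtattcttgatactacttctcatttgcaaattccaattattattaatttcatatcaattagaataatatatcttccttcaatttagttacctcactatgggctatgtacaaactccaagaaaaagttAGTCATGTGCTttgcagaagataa
Tyrp1: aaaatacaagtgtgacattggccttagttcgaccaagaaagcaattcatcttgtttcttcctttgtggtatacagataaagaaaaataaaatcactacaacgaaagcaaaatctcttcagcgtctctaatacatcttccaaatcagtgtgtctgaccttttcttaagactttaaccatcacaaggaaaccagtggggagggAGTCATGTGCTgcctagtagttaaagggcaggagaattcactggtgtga
Dct: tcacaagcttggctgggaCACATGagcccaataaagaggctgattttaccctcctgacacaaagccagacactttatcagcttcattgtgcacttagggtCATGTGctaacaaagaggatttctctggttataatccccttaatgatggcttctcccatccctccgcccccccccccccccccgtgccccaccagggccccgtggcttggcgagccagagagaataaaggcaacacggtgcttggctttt
Mitf: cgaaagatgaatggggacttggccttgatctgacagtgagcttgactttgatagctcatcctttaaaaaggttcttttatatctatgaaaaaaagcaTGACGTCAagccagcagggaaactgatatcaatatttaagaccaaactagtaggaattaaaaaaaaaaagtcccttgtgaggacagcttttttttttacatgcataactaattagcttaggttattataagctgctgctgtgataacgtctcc
The M-box string was taken because the Tyr and Tyrp1 windows share it, and it begins 24 bases before the start in Tyr and 49 bases before it in Tyrp1. It was found in 7 of 32851 such windows (0.0213%). The Dct window held the shorter CATGTG at 2 places, where 12.3% of all windows held it at least once, and the shown Mitf window held 1 TGACGTCA, against 1.55% of all windows. CATGTG lies inside the M-box, so the M-box matches in Tyr and Tyrp1 are also matches to it. The windows of Kit and Ednrb and the other Mitf windows held none of these strings, and CACGTG, which 6.02% of all windows hold, was in none of the 9. A match describes letters only and was not set against the expression values.

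The values are MAS5 signal, the array's summary of brightness per probe set on a linear scale. Median signal was 30.3 and 34.5 units on the unirradiated WT and KO arrays and 18.7 on both irradiated arrays, so lower signal after UVB was an array-wide feature. A floor of 24.9 units was used, which is where the middle probe set lies when probe sets are ranked by mean signal: lower values were raised to it, and a fold against such a value is a lower bound. Each gene is represented by its brightest probe set, and 11379 genes reached the floor on average and were tested, all 10 described here among them. Keratinocyte markers were above the floor on all arrays for 11 of 11 genes measured, with Krt5 between 12614 and 13795 units. Mapk14 was not lower on the KO arrays by its brightest probe set (985 and 293 units in WT without and with UVB, 1449 and 647 in KO). The deleted part of the gene is not named, and a probe set outside it checks nothing, so the arrays are called KO by their label.

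Transcripts of pigment genes were measured on all 4 arrays of these keratinocyte cultures. Dct, which encodes dopachrome tautomerase, read 1756 and 1449 units in WT without and with UVB, and 2289 and 1603 in KO. Pmel, which encodes the fibril protein of the melanosome, read 1763, 1342, 2404 and 1606 units in the same order. Tyrp1, an enzyme of the same family as Tyr, read 1777, 1439, 2599 and 1742 units. In each of the 3 the unirradiated KO array was highest and the irradiated WT array lowest.

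Tyr, which encodes tyrosinase, the rate-limiting enzyme of melanin synthesis, read 160.3, 107, 305 and 167 units, and its irradiated KO value was above the unirradiated WT value. Mlana, a melanosome protein, read 408 and 402 units in WT cells without and with UVB, which are nearly the same, and 598 and 419 in KO cells. Slc45a2, a melanosomal transporter, read 108, 61.8, 164 and 106 units in the same order as above. In both Tyr and Slc45a2 the irradiated WT array was lowest.

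Of the transcription factors, Mitf read 225 and 274 units without irradiation in WT and KO and 23.0 and 33.3 after UVB, so it was under the floor on the irradiated WT array and just above it on the irradiated KO array. Sox10 read 59.7 and 62.4 units in WT and 113 and 50.3 in KO without and with UVB. The irradiated KO array was its lowest.

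Of the receptors, Ednrb read 139 and 62.2 units in WT and 148 and 69.1 in KO, so that it was low on both irradiated arrays. Kit read 30.8 and 22.2 units in WT and 112 and 16.7 in KO, so that it stood well above the floor on the unirradiated KO array alone.

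**Figure D1:**
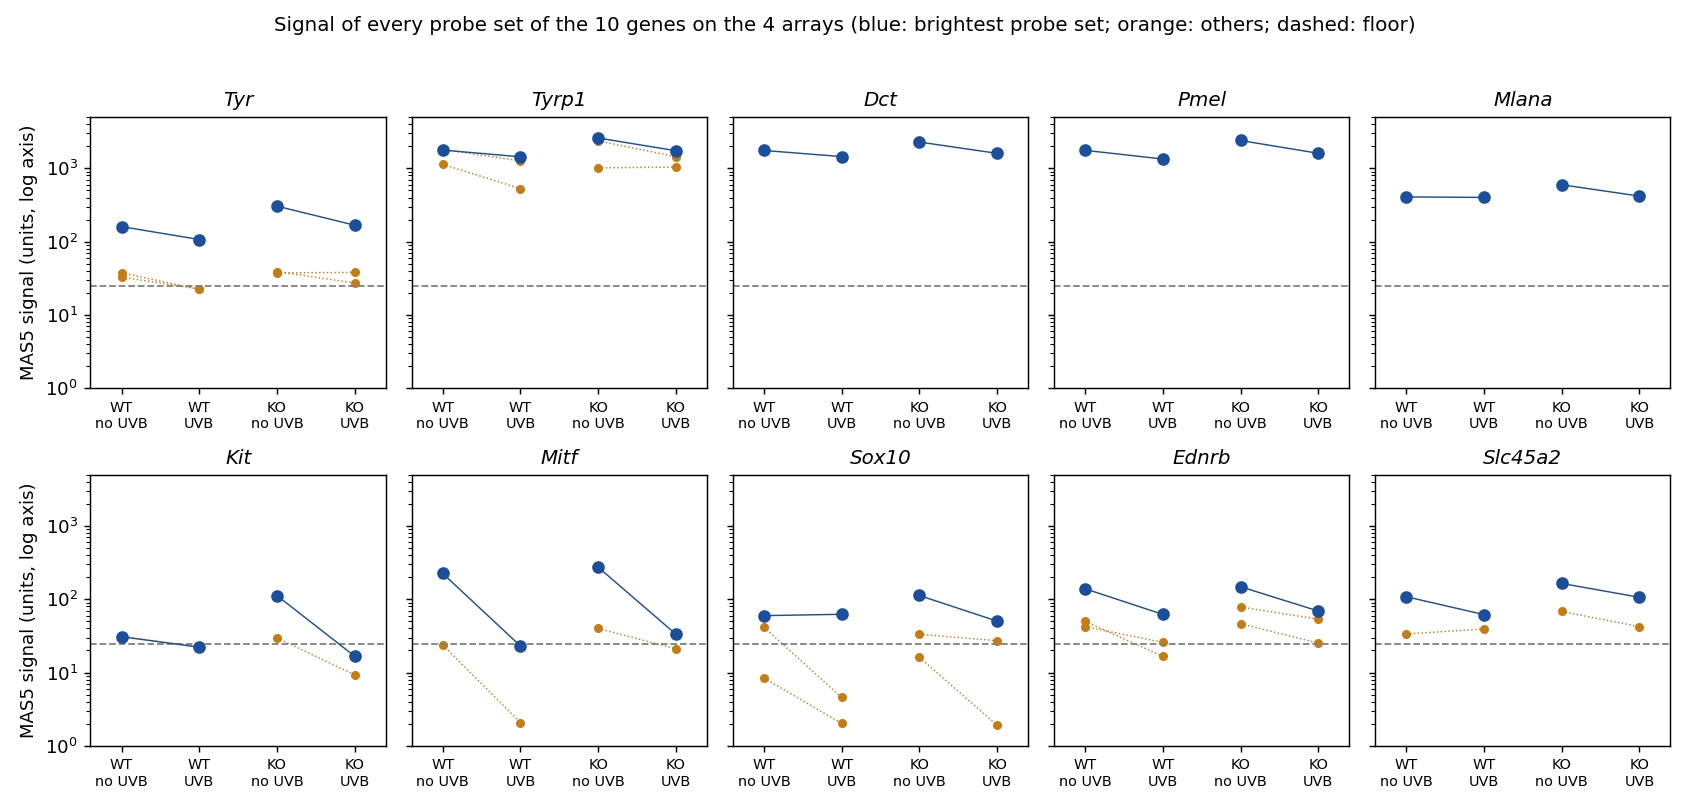
MAS5 signal of all 21 probe sets on the 4 arrays, 1 panel per gene, on a log axis. Blue points are the brightest probe set of the gene and orange points the others, lines join the 2 arrays of a genotype, and the dashed line is the floor of 24.9 units. Mitf drops to near the floor after UVB in both genotypes, while Dct, Pmel and Tyrp1 stay above 1000 units on all 4 arrays by their brightest probe sets.

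All 10 genes were highest on the unirradiated KO array, an order that 69.3% of all genes tested also had. Kit reached the floor on average only through that array, so for Kit this order was in part a condition of being tested. Both irradiated arrays lay below both unirradiated arrays for 7 of the 10, against 79.6% of all genes. Of the 21 probe sets, 16 were highest on the unirradiated KO array, and 12 were at or above the floor on all 4 arrays. Both counts use signal before the floor was applied. No share over all probe sets is given beside them, so nothing is read from them. These are bulk cultures, so fewer cells of a type and less RNA per cell cannot be told apart.

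Without irradiation, pigment genes were higher in KO cells than in WT cells, by less than 2-fold. Tyr was 1.90-fold higher, Slc45a2 1.52-fold, Mlana 1.47-fold, Tyrp1 1.46-fold, Pmel 1.36-fold and Dct 1.30-fold. Their median log2 difference was 0.55, against 0.16 for all genes tested, and was 0.42 with quantile normalization and 0.39 with median centring, where that of all genes was 0. Each of the 6 stayed above 0 under both. With Kit, Mitf, Sox10 and Ednrb, 10 of 10 genes were above 0 and 0 below, against 73.1% and 26.8% of all genes. But Ednrb, at 0.09, was at -0.07 under either scaling, and for Kit being higher was in part a condition of being tested. With 1 array in each group, no difference between single arrays here has a replicate check.

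Of the 10 genes, Kit showed the largest difference between the unirradiated genotypes under all 3 scalings plotted, and its probe sets disagreed. The brighter one was 3.64-fold higher in unirradiated KO cells, and 1 of the 10 genes was thus at least 2-fold higher, against a background of 1.63%, with 0 at least 2-fold lower against 0.729%. This probe set reached the floor on average only through the unirradiated KO array, so its being high there was in part a condition of being tested, and nothing is read from that count. The second Kit probe set read 31.3 units in unirradiated WT cells and 29.7 in unirradiated KO cells, a log2 difference of -0.08, and 22.0 and 9.29 units after UVB. Averaged over both probe sets the difference of Kit was 0.89, below the 2-fold line. On the irradiated arrays both Kit probe sets were under the floor in both genotypes, so no genotype fold can be given there.

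Second probe sets of other genes also differed in size. Tyrp1 was 1.31-fold higher in unirradiated KO cells by its second probe set and 1.12-fold lower by its dimmest, which is marked as possibly cross-hybridising. The 2 dimmer Tyr probe sets read 37.6 and 32.8 units in unirradiated WT cells and 39.0 and 37.5 in KO cells, so the Tyr difference rests on its brightest probe set. Slc45a2 was 2.03-fold higher by its dimmer probe set. The probe sets of Sox10 and Ednrb did not share a direction. Sox10 was 1.88-fold higher by its brightest probe set and 1.25-fold lower by its second, and Ednrb was 1.86-fold higher by its second probe set and 1.07-fold lower by its dimmest.

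After UVB the 6 pigment genes were again higher in KO cells as deposited by their brightest probe sets. The fold was smaller than without irradiation for all but Slc45a2. Slc45a2 was 1.72-fold higher, Tyr 1.57-fold, Tyrp1 1.21-fold, Pmel 1.20-fold, Dct 1.11-fold and Mlana 1.04-fold, and Mlana was below 0 at -0.02 with quantile normalization and -0.04 with centring. Their median log2 difference was 0.27, against 0.05 for all genes, of which 55.9% were above 0. Mitf was at least 1.34-fold higher. Sox10 was 1.24-fold lower, which made it 1 gene below 0 of the 10, against 37.9% of all genes. By the brightest probe sets none of the 10 genes reached 2-fold, against 1.41% higher and 1.47% lower of all genes. Ednrb was 2.07-fold higher by its second probe set and at least 1.01-fold by its dimmest. Tyrp1 was 1.14-fold higher by its second probe set and 1.97-fold by its dimmest, the possibly cross-hybridising one. Of the 21 probe sets, 17 read higher on the irradiated KO array than on the irradiated WT array. This count uses signal before the floor was applied, and some of these values lie under it. No share over all probe sets is given here, so nothing is read from the count.

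The genotype effect over both conditions was tested with limma, with irradiation as the other term, which leaves 1 residual degree of freedom, and p-values were adjusted over all 11379 genes. None of the 10 genes passed in either direction (0 at adjusted p under 0.05), against 0.967% of genes higher and 0.642% lower, although 6 were higher in KO at an unadjusted limma p under 0.05, against 13.7% of all genes. Tyr came nearest, at 0.79 (log2, SE 0.17, limma adjusted p = 0.0611), followed by Tyrp1 at 0.41 (SE 0.11, limma adjusted p = 0.0994). Kit, 1 of the 6 at an unadjusted limma p under 0.05, was at 0.93 (SE 0.41, limma adjusted p = 0.281). Its probe set reached the floor on average only through the unirradiated KO array. Being higher in KO was thus in part a condition of its being tested, and its place among the 6 is not read as a result. What the model takes as error is how far the UVB responses of WT and KO disagree, so these p-values do not measure a spread between cultures.

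Mitf was lower after UVB in both genotypes by a larger fold than any other of the 10 genes. After UVB it was lower by at least 9.04-fold in WT and by 8.22-fold in KO, and only 0.501% and 0.747% of genes tested had a lower log2 difference. In the limma fit it fell by 3.11 (log2, SE 0.21, limma adjusted p = 4.92e-06), and it also passed as lower with quantile normalization at -2.22 and centring at -2.06. The size was smaller with the mean over probe sets, at -1.72, and with the floor at the 75th percentile, at -0.95. The second Mitf probe set was dim, at 23.7 and 2.08 units in WT and 39.9 and 21.1 in KO without and with UVB.

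As deposited, the 6 pigment genes were lower after UVB in both genotypes. Of the 10 genes, 9 were below 0 in WT and 1 above, against 89.9% and 9.22% of all genes, and in KO 10 were below and 0 above, against 93.7% and 5.84%. In WT cells the decrease was 1.75-fold for Slc45a2, 1.5-fold for Tyr, 1.31-fold for Pmel, 1.23-fold for Tyrp1, 1.21-fold for Dct and 1.02-fold for Mlana. In KO cells it was 1.82-fold for Tyr, 1.55-fold for Slc45a2, 1.5-fold for Pmel, 1.49-fold for Tyrp1 and 1.43-fold for both Dct and Mlana. The median log2 difference of the 6 was -0.35 in WT and -0.58 in KO, against -0.70 and -0.82 for all genes tested. For the 985 genes with mean signal between 1000 and 3000 units, where Dct, Pmel and Tyrp1 lie, the medians were -0.43 and -0.52. Those 3 genes were at -0.28 to -0.39 in WT and -0.51 to -0.58 in KO. For the 4250 genes between 100 and 400 units, where Tyr and Slc45a2 lie, the medians were -0.96 and -1.03. Some dimmer probe sets went the other way: that of Slc45a2 was 1.17-fold higher after UVB in WT. In KO the dimmest probe set of Tyrp1 was 1.03-fold higher, and 1 of Tyr 1.01-fold higher.

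The direction of this UVB difference depends on the scaling. With quantile normalization the median of the 6 pigment genes was 0.20 in WT and 0.10 in KO, against 0.05 and 0.06 for all genes, and with median centring it was 0.72 and 0.55, against 0.33 and 0.28. Scaling by the 18 hybridisation spike-in probe sets kept the direction as deposited. Of the 10 genes, 2 were at least 2-fold lower as deposited in WT (Mitf and Ednrb), against 34.8% of all genes, and 4 in KO (Mitf, Kit, Sox10 and Ednrb), against 39.3%. None was at least 2-fold higher, against 0.58% and 0.167%. These shares of the 10 genes were not above those of all genes for the lower calls in WT, and 4 of 10 is near the background in KO.

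In the limma fit for irradiation, 8 of the 10 genes fell as deposited, against 69.4% of all genes, and 0 rose, against 0.703%. Tyr fell by 0.73 (log2, SE 0.17, limma adjusted p = 0.00432), Pmel by 0.49, Tyrp1 by 0.44, Dct by 0.40 and Slc45a2 by 0.72, but none of these 5 passed as lower with quantile normalization or centring. Mlana was at -0.27 (limma adjusted p = 0.137) and Sox10 at -0.55 (limma adjusted p = 0.129). With median centring 4 of the 10 rose (Tyrp1, Dct, Pmel and Mlana) and 1 fell, which was Mitf, against 36.4% and 14.8% of all genes, so both counts are near the background.

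Both receptors were lower after UVB as deposited. After UVB, Ednrb was lower by 2.24-fold in WT and by 2.15-fold in KO, and its other probe sets were also lower in both. As deposited it fell by 1.13 (log2, SE 0.20, limma adjusted p = 0.000775), but was at -0.04 with quantile normalization and -0.03 with centring. Kit was lower by at least 1.24-fold in WT and at least 4.50-fold in KO. In WT its log2 difference turned to 0.25 with quantile normalization and 0.54 with centring. Kit fell by 1.24 in the limma fit as deposited (SE 0.41, limma adjusted p = 0.0217), a call that was lost without the intensity trend (limma adjusted p = 0.0700), with irradiation as the only factor (limma adjusted p = 0.112), with quantile normalization (limma adjusted p = 0.215) and with centring (limma adjusted p = 0.319). The unirradiated KO array, where Kit was high by 1 of 2 probe sets, enters both this difference and the genotype difference.

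**Figure D2:**
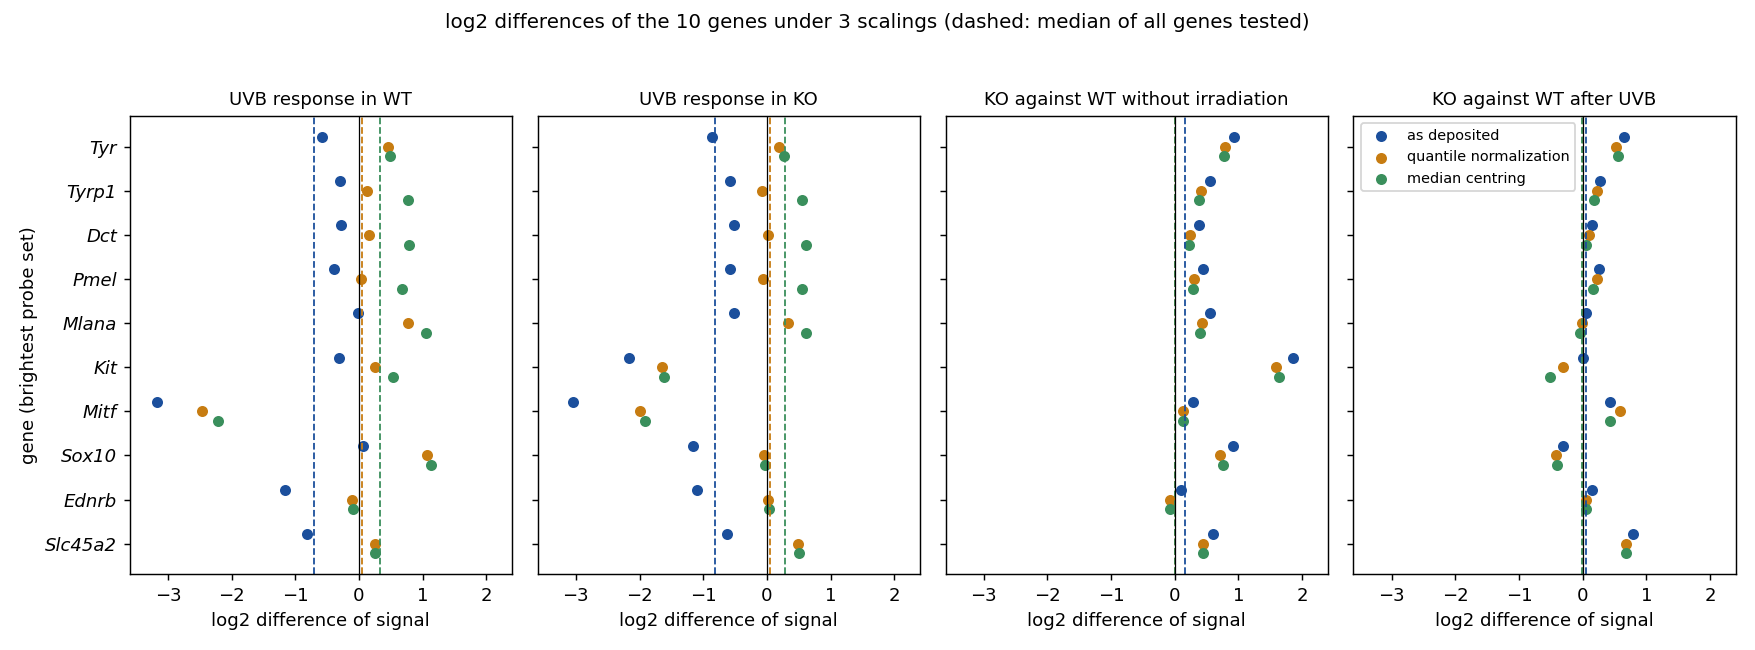
log2 differences of signal of the 10 genes by their brightest probe sets in the 4 comparisons, as deposited (blue), with quantile normalization (orange) and with median centring (green). Dashed lines are the medians of all genes tested under each scaling. Mitf is far below every dashed line after UVB in both genotypes, the pigment genes cross 0 with the scaling after UVB, and they lie above the dashed lines in unirradiated KO against WT cells.

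The KO response to UVB minus the WT response was -1.23 for Sox10 on the log2 scale as deposited. For Kit both irradiated values were raised to the floor, so its value of -1.86 only repeats the unirradiated genotype difference with the sign turned. By its brightest probe set, Sox10 after UVB was 1.04-fold higher in WT but decreased 2.24-fold in KO, whereas by its second probe set the decrease was at least 1.67-fold in WT and 1.23-fold in KO. The log2 differences of the brightest Sox10 probe set became 1.07 in WT and -0.05 in KO with quantile normalization, and 1.13 and -0.03 with centring. For the pigment genes by their brightest probe sets, the difference ran from -0.49 for Mlana to 0.18 for Slc45a2, with 5 of 6 below 0. With the mean over probe sets it ran from -0.49 to 0.22, with 4 of 6 below 0. The median of Tyr, Tyrp1 and Dct then turned from -0.27 to 0.07, so the sign for these enzymes depends on the probe sets used. Mitf was at 0.14 and Ednrb at 0.06. No residual degree of freedom is left for a test of this difference.

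The profiles over the 4 arrays were compared by the root mean square (RMS) difference of mean-centred log2 signal. Each of Tyr, Tyrp1, Dct, Pmel and Mlana was set against the mean profile of the other 4, and the distance was 0.017 for Tyrp1, 0.058 for Pmel, 0.11 for Dct, 0.16 for Mlana and 0.28 for Tyr. Among these, Tyrp1 was the most typical and Tyr the least. Against the mean of all 5, Slc45a2 lay at 0.22, Sox10 at 0.24, Ednrb at 0.38, Kit at 0.61 and Mitf at 1.33. Outside the 10 genes, the 5 profiles most like that mean over the 4 arrays were those of Spag5, Col4a2, Pcyt2, Slc35f2 and Commd7, at 0.012 to 0.030. The 5 most like Kit were Depp1, Tube1, Tfap2e, Rbm45 and Ror2, at 0.13 to 0.21, and each of them was between 79.0 and 117 units on the unirradiated KO array and under the floor on both irradiated arrays. Raising both irradiated values to the floor, and the filter on mean signal, fix much of this likeness.

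Other genes of pigmentation ranged widely between the genotypes around a median near that of all genes. Of 18 further pigment and melanosome genes, 17 were on the array and 16 were tested. Between the unirradiated genotypes, 10 were above 0 and 6 below, 0 reached 2-fold, and the median was 0.18, against 0.16 for all genes, with a range from -0.57 for Atp7a to 0.94 for Oca2. After UVB, 11 of the 16 fell in the limma fit as deposited and 0 rose, against 69.4% and 0.703% of all genes. With quantile normalization 2 fell and 3 rose, where 2306 and 2331 of all 11451 genes tested did. With centring 0 fell and 6 rose, against 14.8% and 36.4% of all genes. The counts as deposited and with quantile normalization are thus near the background. The largest differences in WT as deposited were those of Atp7a, a copper transporter that supplies tyrosinase, 5.42-fold lower in WT, Mfsd12 at least 2.97-fold lower and Trpm1, a melanocyte ion channel gene, 2.31-fold lower. Oca2, a melanosomal transporter named after its values were seen, read 47.2 and 47.3 units in WT and 90.4 and 58.2 in KO without and with UVB. Mc1r, the melanocortin receptor, read 66.2 and 37.3 units in WT and 88.0 and 24.6 in KO, the last under the floor.

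Genes that many cell types use to build lysosome-related organelles also had a median near that of all genes without irradiation. All 16 on the array were tested, with a median genotype difference of 0.19 without irradiation and a range from -0.45 to 0.61. After UVB, 2 of the 16 were at least 2-fold higher in KO, Bloc1s5 at 2.13-fold and Vps33a at 2.02-fold, against 1.41% of all genes. In the limma fit 12 fell after UVB as deposited and 0 rose, but 0 fell and 4 rose with quantile normalization, and 1 fell and 6 rose with centring. For this list and the next 2, the background is 69.4% of all genes lower and 0.703% higher as deposited. It is 2306 lower and 2331 higher of 11451 genes with quantile normalization, and 14.8% lower and 36.4% higher with centring. Bloc1s5 was 6.34-fold lower in WT, the vesicle gene Vps33a 3.36-fold and Lyst 3.29-fold. Of 12 transcription factors of neural crest and melanoblasts, 8 were tested. In the limma fit 6 fell after UVB as deposited and 0 rose, and 4 fell and 1 rose with either quantile normalization or centring. As deposited, Snai2 was 5.93-fold, Tfap2a 3.17-fold and Tfap2b 3.13-fold lower in WT. Of 12 adaptors and inhibitors of KIT signalling, 11 were tested. In the limma fit 9 fell as deposited and 0 rose, 5 fell and 1 rose with quantile normalization, and 4 fell and 1 rose with centring. As deposited, the inhibitor gene Spred1 was 8.67-fold, the exchange factor gene Sos1 6.86-fold and Pik3r1 at least 7.59-fold lower in WT. As deposited, none of the genes in these 4 lists passed in the limma fit for genotype.

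Kitl, which encodes the ligand of KIT, was higher in KO cells in both conditions. Its signal was 399 and 136 units in WT without and with UVB, and 632 and 255 in KO. The fold was 1.58 without irradiation and 1.88 after UVB, and the genotype effect was 0.79 (log2, SE 0.15, limma adjusted p = 0.0360). Of 4 Kitl probe sets, 3 were higher in KO without irradiation and 4 after UVB. The call held with quantile normalization (limma adjusted p = 0.0400) and centring (limma adjusted p = 0.0424). It did not hold without the intensity trend (limma adjusted p = 0.299), with genotype as the only factor or with the mean over probe sets (limma adjusted p = 0.170). Under those last 3 settings 0 of all genes tested passed for genotype, so the loss is not particular to Kitl. Kitl also fell after UVB, by 1.43 on the log2 scale as deposited and by 0.49 with quantile normalization, and it was at -0.33 with centring (limma adjusted p = 0.0769).

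Of the 12 ligand genes listed, 11 were on the array and 8 were tested. In the limma fit 5 fell after UVB as deposited and 0 rose, and 3 fell with quantile normalization and 2 with centring. Of all genes, 69.4% fell as deposited, 2306 of 11451 with quantile normalization and 14.8% with centring. Edn1, an endothelin, read 473 and 635 units in WT and 463 and 182 in KO without and with UVB, so it was 1.34-fold higher after UVB in WT and 2.54-fold lower in KO. Edn3, the endothelin best known as a ligand of EDNRB, read 103 and 75.4 units in WT and 149 and 48.8 in KO, by a probe set marked as possibly cross-hybridising. Pomc read 57.3 and 29.7 units in WT and 58.4 and 44.6 in KO. Nrg1 was 5.40-fold and Edn2 3.42-fold lower after UVB in WT.

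Markers of other cells, listed with earlier results of these data known, were measured on the same arrays. Fibroblast markers were tested for 12 of 12 genes, and 6 were at least 2-fold higher in unirradiated KO cells, against 1.63% of all genes, with a median of 1.05. Pcolce was 3.56-fold and Thy1 2.44-fold higher, and Pdgfra was 1.12-fold lower. In the limma fit for genotype 8 of the 12 passed as higher, against 0.967% of all genes. As many passed with quantile normalization, centring or spike-in scaling. But 0 did without the intensity trend, with genotype as the only factor or with the mean over probe sets. Under those 3 alternatives 0 of all genes tested passed for genotype, so the loss is not particular to these markers. Their summed signal was 4599.7 and 3814 units in WT and 9196 and 6233 in KO without and with UVB, and the sum over the 10 pigment pathway genes was 6427 and 4969.7 in WT and 9007 and 5812 in KO. Keratinocyte markers summed to 48348 and 38414 units in WT and 48219 and 39211 in KO, with a median genotype difference of 0.04 without irradiation. Of the 11, 2 passed as higher in KO in the limma fit, and 0 under those same 3 alternatives. They were the differentiation keratins Krt1, at 0.89 (log2, limma adjusted p = 0.0360), and Krt10, at 1.10 (log2, limma adjusted p = 0.00698), which was named after its values were seen. Krt1 was 1.41-fold higher in KO without irradiation and 2.44-fold after UVB, and Krt10 1.77-fold and 2.59-fold. Without irradiation 6 of the 11 keratinocyte markers were above 0 and 5 below. Both keratin folds were larger after UVB, whereas the median log2 difference of the 6 pigment genes went from 0.55 to 0.27. With the mean over probe sets the pigment gene median went from 0.42 to 0.35. By brightest probe sets the median of the fibroblast markers also went down, from 1.05 to 0.75, and that of all genes tested from 0.16 to 0.05. Most fibroblast markers and these 2 keratins were thus higher in KO cells, as the pigment genes were. Their part in the pigment gene difference was not tested.

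Kit is also a marker of mast cells, and Sox10 of Schwann cells. Of 10 mast cell markers, 6 were under the floor on every array (Cpa3, Mcpt4, Fcer1a, Ms4a2, Hdc and Srgn), and the list summed to 141 and 97.2 units in WT and 164 and 101.2 in KO. Gata2, a transcription factor of mast cells and of other tissues, read 14.1 and 23.2 units in WT and 41.5 and 34.2 in KO, and Tpsb2 read 37.2, 31.0, 34.1 and 15.0 units in the 4 groups. Of 8 Schwann cell and glia markers measured, S100b, Cdh19 and Sox2 were under the floor on every array. The 3 tested, Mbp, Egr2 and Erbb3, fell after UVB in the limma fit as deposited and with quantile normalization, and 2 of them with centring. Of all genes, 69.4% fell as deposited, 2306 of 11451 with quantile normalization and 14.8% with centring. As deposited Mbp was 6.79-fold, Egr2 4.00-fold and Erbb3 3.06-fold lower in WT. That list summed to 1401 and 375 units in WT and 1283 and 407 in KO, the unirradiated KO sum being below that of WT. Of 8 leukocyte and Langerhans cell markers 6 were under the floor on every array, as were 4 of 8 endothelial markers.

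**Figure D3:**
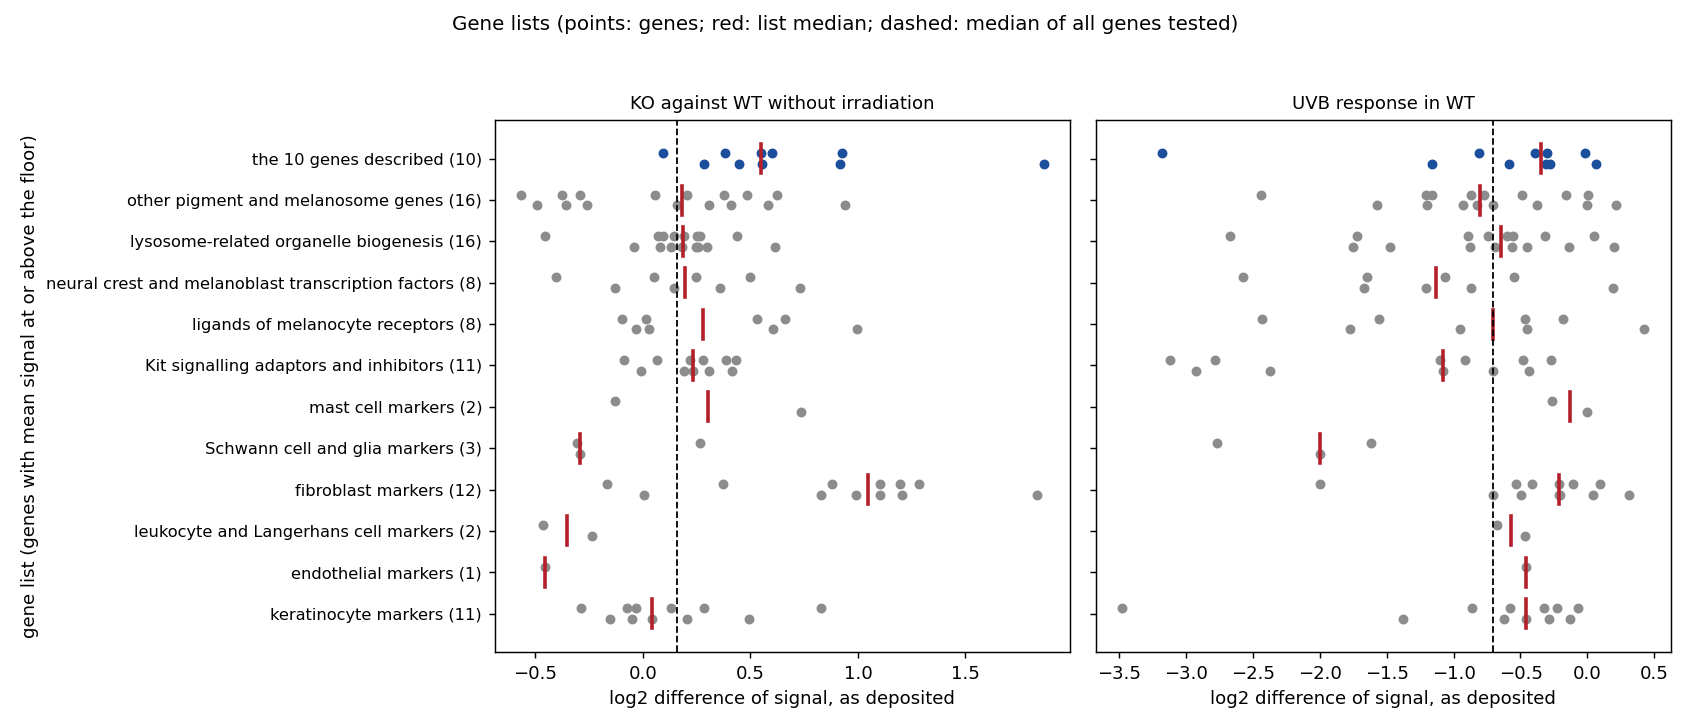
log2 differences of signal as deposited for the tested genes of each list, KO against WT without irradiation at left and UVB against no UVB in WT at right. Points are genes, red bars the list medians, and dashed lines the medians of all genes tested, 0.16 and -0.70. In unirradiated KO against WT cells the 10 genes described have a median of 0.55 and fibroblast markers one of 1.05, while the keratinocyte markers have one of 0.04.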

How the data were processed

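Total RNA from 4 cultures was hybridised to 1 Affymetrix mouse array each. The values are intensity (MAS5 signal) that the authors deposited, made with MAS5 per the submitters' processing notes; no MAS5 version, target or present call is given in the sources used here. The values were not rescaled. Platform annotation gave 34945 of 45101 probe sets 1 gene symbol, 932 several and 9160 none, with 64 controls; 34741 were found in RefSeq by gene ID and none changed symbol. Values under 24.9 units were raised to that floor, and log2 differences were taken between single arrays. limma 3.58.1 in R 4.3.3 (lmFit, eBayes with trend) fitted irradiation and genotype additively, with Benjamini-Hochberg adjustment over 11379 genes, called at 0.05, and the fit was tested on simulated data. Tables and plots used Python 3.11.15, pandas 2.3.3, numpy 2.4.6 and matplotlib 3.10.9. The alternatives were quantile normalization, centring, spike-in scaling, other floors, fold thresholds, probe set choices and limma models. The number of arrays limits the precision.

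All 10 genes are named, with Mapk14, the genes Kitl, Edn1, Edn3, Pomc and Mc1r, up to 3 genes of each list with the largest difference between unirradiated genotypes or after UVB in WT, and the 5 genes most like each profile. Asip and Slc24a5 had no single-symbol probe set matched and are not used here. The 10 genes and the lists were chosen with earlier results of these data known, and the other settings for the gene lists were added after seeing the data.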

Additional observations from a re-analysis of the deposited data

Results flagged for a closer look

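Some differences had opposite signs in the 2 settings compared, and none of these was tested, since 1 array per group leaves nothing to test it with. Sox10 was at 0.06 after UVB in WT and at -1.16 in KO, a difference of -1.23 on the log2 scale, and the same -1.23 separates its KO against WT difference after UVB (-0.31) from that without irradiation (0.91). With quantile normalization and centring its UVB responses were 1.07 and 1.13 in WT and -0.05 and -0.03 in KO. Its second probe set was lower after UVB in both genotypes. Edn1 was at 0.42 after UVB in WT and at -1.35 in KO, a difference of -1.77. For Edn3 the KO against WT difference was 0.53 without irradiation and -0.63 after UVB, which differ by -1.16. The probe set of Edn3 used here is marked as possibly cross-hybridising. For Mc1r it was 0.41 and -0.58, which differ by -0.99, with its irradiated KO value under the floor.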

How the results depend on the processing

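No paired analysis was possible because each group has 1 array and the labels give no replicate numbers; for the same reason no array could be left out. Counts are of the 10 genes, except that with the floor at the 75th percentile only 6 were tested. At least 2-fold higher after UVB in WT went from 0 to 1 with quantile normalization and 2 with centring. Of all genes, 66 of 11379 were so as deposited, 620 of 11451 with quantile normalization and 1323 of 11600 with centring. At least 2-fold lower in WT went from 2 to 1 with quantile normalization, centring, the mean over probe sets or a 3-fold threshold, to 0 with the floor at the 75th percentile and to 4 at 1.5-fold. In KO it went from 4 to 2 with quantile normalization, centring, the mean over probe sets or 3-fold, and to 1 with the 75th percentile floor. Higher in unirradiated KO than WT went from 1 to 3 with spike-in scaling, 4 at 1.5-fold, and 0 with the 75th percentile floor or the mean over probe sets. After UVB this count went from 0 to 2 at 1.5-fold. Of all genes, 186 were at least 2-fold higher in unirradiated KO as deposited and 291 of 11405 with spike-in scaling. For the other floors, fold thresholds and the mean over probe sets, no such count over all genes is given here. Nothing is read from those fold counts of the 10 genes. In limma, genes higher after irradiation went from 0 to 1 with quantile normalization and 4 with centring, and genes lower from 8 to 1 with either, 5 of 6 with the 75th percentile floor, 5 without the trend, and 2 with irradiation as the only factor. Genes higher in KO in limma went from 0 to 3 with spike-in scaling and 2 with the 25th percentile floor. It was 1 with the 75th percentile floor or with every probe set. The calls over all genes rose too, from 110 of 11379 as deposited to 406 of 11405 with spike-in scaling. They were 267 of 15079 with the 25th percentile floor, 207 of 6803 with the 75th, and 274 of 20036 with every probe set. The irradiation effect changed sign with quantile normalization and centring for Tyr (0.32 and 0.37), Tyrp1 (0.029 and 0.66), Dct (0.090 and 0.70), Mlana (0.55 and 0.83), Sox10 (0.51 and 0.55) and Slc45a2 (0.37 and 0.38), and with centring for Pmel (0.61). The UVB response of Ednrb in KO became 0.025 and 0.028. Apart from the scalings' own construction, the cause was not tested.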
